A study of Mus musculus with 2 samples.

Results

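The nuclear genes of oxidative phosphorylation were examined by RNA-seq in mouse E14 embryonic stem cells (ESCs) and in Sox2 T258A cells. The members were the rows of the deposited gene table whose symbol begins with Nduf, Uqcr, Sdha to Sdhd, Cox4 to Cox8 or Atp5 and is not marked as a pseudogene. This rule, which uses no measured value, found 96 of 24532 genes, of which 44 belong to complex I, 8 to complex II, 8 to complex III, 20 to complex IV and 16 to complex V. They comprise 82 subunits, of which 8 are tissue-specific isoforms, and 14 assembly factors or related proteins. The E14 cells, labelled WT, are a male mouse ESC line in established use and were cultured with serum and leukemia inhibitory factor (LIF). Sox2 T258A cells are E14 cells in which 1 Sox2 allele carries alanine in place of threonine at a residue that otherwise bears the sugar O-GlcNAc, made by CRISPR/Cas9 editing with single-stranded donor DNA. The edited cells were cloned and maintained with the inhibitors PD0325901 and CHIR99021 (2i) in addition to serum and LIF, and 2i was withdrawn before use, so that genotype, clone and culture history cannot be told apart. Each genotype had 1 library, made from polyadenylated RNA of a cell population.

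The respiratory chain of the inner mitochondrial membrane passes electrons from NADH (complex I) and succinate (complex II) through complex III and cytochrome c to oxygen at complex IV, and ATP synthase (complex V) uses the resulting proton gradient to make ATP. Most of the subunits are encoded in the nucleus, while a small core of complexes I, III, IV and V is encoded by mitochondrial DNA. Several complex IV subunits have a ubiquitous isoform and a second one that is used in heart and skeletal muscle, lung or testis. Pluripotent cells are known to rely strongly on glycolysis, although they keep a working respiratory chain.

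Transcript levels are given as deposited TPM, which is scaled to transcript length and to a library sum (993247 in E14 and 994155 in Sox2 T258A cells), so that genes can be compared with each other. The library totals were 60263536 reads in E14 and 44609228 in Sox2 T258A cells. Differences are log2 ratios of TPM in Sox2 T258A cells over E14, with no pseudocount, for genes that reached a TPM of 10 in E14, in Sox2 T258A cells or in both (the filter). The 95% interval beside a ratio is an exact Clopper-Pearson counting interval. It covers counting error only, since PCR copies are not separate molecules, and the spread between cultures was not measured. A single library per genotype allows neither a replicate check nor a p-value. In bulk RNA, fewer cells that express a gene and less RNA per cell cannot be told apart. All 10 ESC markers examined, among them Pou5f1, Nanog and Zfp42, passed the filter in both libraries, with 6 lower and 4 higher in Sox2 T258A cells. Sox2 itself had a TPM of 372.5 in E14 and 274.2 in Sox2 T258A cells (log2 ratio -0.44, -0.47 to -0.41).

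The stretch of 250 bases before the annotated start is shown for 2 ubiquitous and 2 muscle isoforms of complex IV, because they include genes at high, low and undetected levels. The sequences come from RefSeq (GRCm38.p6) and are written 5′ to 3′ on the strand of the gene, and capitals mark matches, on either strand, to the motif GCGCA, any 1 base, GCGC of nuclear respiratory factor Nrf1 or to the Ets-family motif CCGGAAG, which Gabpa binds. The ubiquitous Cox6a1 (chr5:115348959-115349208, minus strand) and Cox8a (chr19:7217617-7217866, minus strand) come first. The muscle isoforms Cox7a1 (chr7:30183921-30184170, plus strand) and Cox8b (chr7:140900447-140900696, minus strand) follow.
Cox6a1: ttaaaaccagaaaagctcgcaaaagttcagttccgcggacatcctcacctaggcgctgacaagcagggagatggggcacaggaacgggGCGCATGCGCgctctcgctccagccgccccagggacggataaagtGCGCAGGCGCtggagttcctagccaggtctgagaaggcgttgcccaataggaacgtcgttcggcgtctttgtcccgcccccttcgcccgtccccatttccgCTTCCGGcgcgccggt
Cox8a: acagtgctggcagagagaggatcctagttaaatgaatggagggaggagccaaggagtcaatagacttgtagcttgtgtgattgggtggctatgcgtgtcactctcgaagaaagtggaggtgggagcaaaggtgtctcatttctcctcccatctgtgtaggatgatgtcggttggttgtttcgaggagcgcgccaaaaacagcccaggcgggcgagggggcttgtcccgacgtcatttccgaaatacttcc
Cox7a1: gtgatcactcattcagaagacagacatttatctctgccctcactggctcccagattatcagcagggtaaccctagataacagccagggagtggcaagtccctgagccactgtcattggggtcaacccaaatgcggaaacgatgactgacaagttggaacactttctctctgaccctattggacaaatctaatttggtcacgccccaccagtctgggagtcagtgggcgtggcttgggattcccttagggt
Cox8b: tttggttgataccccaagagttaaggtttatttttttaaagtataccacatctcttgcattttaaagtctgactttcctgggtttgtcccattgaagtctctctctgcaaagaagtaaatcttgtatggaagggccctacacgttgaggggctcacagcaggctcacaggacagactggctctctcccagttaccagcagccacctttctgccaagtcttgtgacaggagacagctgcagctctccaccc
The Cox6a1 stretch held 26 CpG dinucleotides, 2 matches to the Nrf1 motif and 1 to the Ets motif. The Cox8a stretch held 11 CpG dinucleotides, the Cox7a1 stretch 4 and the Cox8b stretch 1, with no match to either motif in these stretches, although the longer window of Cox8a used next held 2 Ets matches. Promoter windows of 300 bases, from 250 before to 50 after the start, were found for 80 of the 96 members, with 86 windows in all. The Nrf1 motif was present in 22 of these windows (25.6%), against 6.40% of the 21969 windows of all genes. The Ets motif was present in 20 windows (23.3%, against 11.5%) and the Yy1 motif AAGATGGCG in 9 (10.5%, against 1.86%). By contrast, the Sp motif GGGCGG was found in 45.3% of the members' windows and in 46.4% of all windows. The letters TATAAA were found in 10.5% and 12.3%, respectively. The median number of CpG dinucleotides per window was 20 in the members and 13 over all genes, and it was 8.5 in the 4 tissue isoforms with a window. None of these motifs contains another, although single matches can share bases. Such matches describe the letters of the window and do not show that a factor was bound. The 20 members with an Nrf1 match that passed the filter had a median log2 TPM ratio of -0.25, and the 57 without a match had -0.24. For the Ets motif the medians were -0.19 in 20 members and -0.25 in 57 members, and for the Yy1 motif they were -0.15 in 8 members and -0.25 in 69 members.

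Most of the genes that encode the respiratory chain had a somewhat lower TPM in Sox2 T258A cells than in E14, and very few differed much. Of the 96 members, 91 passed the filter. Among these, 76 had a lower TPM in Sox2 T258A cells (83.5%) and 15 a higher one, whereas 42.7% of the 9094 genes past the filter were lower. Of the 76, Cox6a2, Cox4i2 and Ndufaf5 passed only through E14, so that the filter fixed their direction, and no member passed only through Sox2 T258A cells. The counting interval lay wholly below no change for 70 members (background 35.3%) and wholly above it for 12 (background 50.2%). The median log2 ratio was -0.25 (-0.31 to -0.18), against 0.08 over all genes, and the middle 50% of the members lay between -0.45 and -0.07. The summed TPM of the members was 30614 in E14 and 25628 in Sox2 T258A cells, a log2 ratio of -0.26. More than 2-fold lower expression was found for 2 members, Cox6a2 and Cox7a1 (background 4.07%), and more than 2-fold higher expression for 0 members (background 4.17%, and 8.24% in either direction). The ratio of 72 members lay within 0.5 on the log2 scale of no change. The 5 members that did not pass the filter were Ndufs5, Cox7b2, Cox8b, Cox8c and Ndufa4l2.

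**Figure D1:**
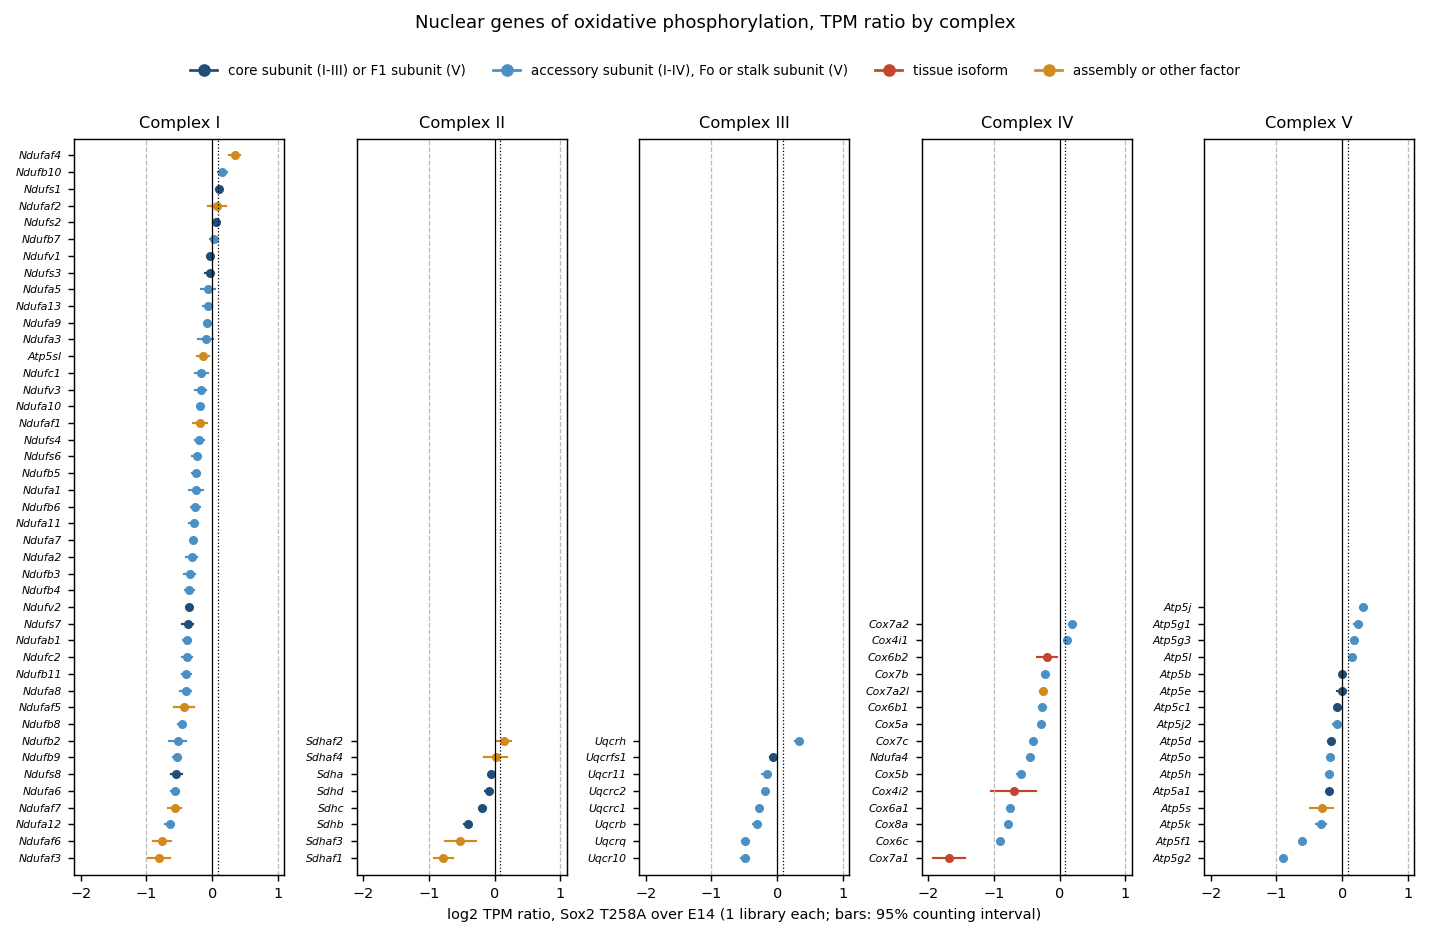
The x axis gives the log2 TPM ratio (Sox2 T258A over E14) and each row of the y axis is 1 member, grouped by complex and coloured by class, with bars for the 95% counting interval. The solid line marks no change, the dotted line the median of all genes (0.08) and the dashed lines 2-fold. Points lie left of the solid line for 76 of 91 members, and 90 are drawn, since Cox6a2 had 0 reads in Sox2 T258A cells and no finite ratio.

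The direction of the ratio went with transcript length across the whole table. The members have short transcripts, with a median length of 861 bases against 2734 bases over all genes past the filter. In the shortest quintile of all genes (59 to 1541 bases) the median log2 ratio was -0.16, and 65.1% of the genes had a lower TPM in Sox2 T258A cells. In the longest quintile the median was 0.38 and 18.7% were lower. The shortest quintile held 70 of the members, and 60 of these were lower, with a median of -0.27. Across genes, which are not independent replicates, Spearman's rho of the ratio with transcript length was 0.38 over 9032 genes and 0.15 over 90 members. When the trend of the ratio on length and GC content was removed, the median of the members was -0.026 (all genes 0.09) and 51 of 91 members were lower, or 56.0% against 41.2% of all genes. Cox6a2 and Cox7a1 were again the members more than 2-fold lower. What underlies the trend was not tested.

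**Figure D2:**
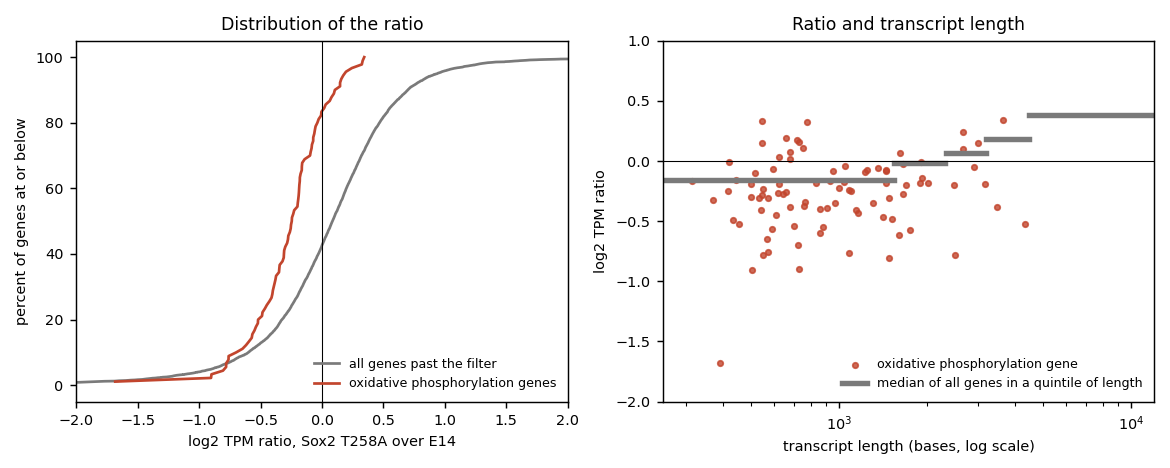
The left panel plots the cumulative percent of genes against the log2 TPM ratio (Sox2 T258A over E14) for all genes past the filter (grey) and for the oxidative phosphorylation genes (red). The right panel plots the ratio of each member against transcript length on a log axis, with grey bars for the median of all genes in each quintile of length, which runs from -0.16 in the shortest to 0.38 in the longest (the outer bars reach past the axis, and genes without a finite ratio are not drawn).

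Complex I, the NADH dehydrogenase, had 37 of 43 passing members at a lower TPM in Sox2 T258A cells, with a median log2 ratio of -0.25 and a summed TPM of 7738 in E14 and 6393 in Sox2 T258A cells. Its core subunits carry the flavin and the iron-sulfur clusters, and accessory subunits surround them. The median was -0.04 in the 7 core subunits, 5 of them lower, and -0.27 in the 28 accessory subunits past the filter, 26 of them lower. The core transcripts are longer, with a median of 1312 bases against 694 bases. With the trend on length and GC content removed the medians were 0.07 and -0.038, against 0.09 over all genes. The median of the accessory subunits thus remained the lower one. Ndufs1, the largest core subunit, had a TPM of 140.4 in E14 and 150.2 in Sox2 T258A cells (log2 ratio 0.10, 0.06 to 0.14), and Ndufs8, an iron-sulfur subunit, had 140.7 and 96.1 (-0.55, -0.63 to -0.47). These values were the highest and the lowest ratio of the core. Ndufa7, an accessory subunit, was the most abundant member of the complex, with a TPM of 633.3 and 514.9, respectively (-0.30). Ndufa12 was the accessory subunit with the lowest ratio, with a TPM of 311.5 and 198.9 (-0.65, -0.72 to -0.58). Ndufb10 had the highest, with 184.5 and 205.7 (0.16, 0.09 to 0.23).

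The assembly factors of complex I, which help to build it and are absent from the finished enzyme, covered a wider range, and 6 of 8 were lower, with a median of -0.31. Among the 6 was Ndufaf5, which passed the filter only through E14 (TPM 12.1, against 9.02 in Sox2 T258A cells), so that its direction was fixed. Ndufaf3 and Ndufaf4, which bind each other during early assembly, had the lowest and the highest ratio of the complex. Ndufaf3 had a TPM of 33.1 in E14 and 18.9 in Sox2 T258A cells (log2 ratio -0.81, -0.97 to -0.64). Ndufaf4 had 23.3 and 29.6 (0.34, 0.26 to 0.42), the highest ratio of all members past the filter. With the trend on length and GC content removed, the ratios were -0.52 for Ndufaf3 and 0.14 for Ndufaf4, and Ndufaf7 (-0.52) and Ndufb10 (0.48) were then the extremes of the complex.

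Complex II, succinate dehydrogenase, is encoded wholly in the nucleus and also serves in the tricarboxylic acid cycle. Its 4 subunits had similar levels within each library, from 207.6 to 232.1 TPM in E14 and from 174.5 to 207.7 TPM in Sox2 T258A cells, and all 4 were lower in the latter. The log2 ratio was -0.05 for the flavoprotein Sdha, -0.41 for the iron-sulfur subunit Sdhb, which had the highest TPM in E14 and the lowest in Sox2 T258A cells, -0.19 for the membrane anchor Sdhc and -0.09 for the anchor Sdhd. The lowest and the highest ratio belonged to assembly factors. Sdhaf1, which supports iron-sulfur cluster insertion into Sdhb, had a TPM of 42.9 in E14 and 24.98 in Sox2 T258A cells (-0.78, -0.93 to -0.63), and part of its transcript matches another protein-coding annotation exactly. Sdhaf2, which is needed for flavin attachment to Sdha, had 17.4 and 19.3 (0.15, 0.04 to 0.25). With the trend on length and GC content removed, the ratios were -0.69 for Sdhaf1 and 0.06 for Sdhaf2. The extremes of the complex were then the assembly factors Sdhaf3 (-0.80) and Sdhaf4 (0.23).

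Complex III, cytochrome c reductase, had 7 of 8 members at a lower TPM, with a median log2 ratio of -0.23 and sums of 2639 and 2323 TPM. The exception was Uqcrh, the acidic hinge protein near the cytochrome c site, with a TPM of 362.7 in E14 and 456.2 in Sox2 T258A cells (0.33, 0.28 to 0.38). Uqcr10, a small membrane subunit, had the lowest ratio, with 440.7 and 314.2 (-0.49, -0.55 to -0.42), although Uqcrq (-0.27) was lower than Uqcr10 (-0.16) with the trend removed. Uqcrb was the most abundant in E14 at 492.5 TPM, against 397.9 in Sox2 T258A cells, so that Uqcrh ranked first in Sox2 T258A cells. Uqcrb has 3 near-identical pseudogenes in the annotation, and its value is uncertain to that extent.

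Complex IV, cytochrome c oxidase, had the lowest median of the 5 complexes. Of 16 members past the filter, 14 were lower, with a median log2 ratio of -0.43, and the summed TPM was 9099 in E14 and 6848 in Sox2 T258A cells (log2 ratio of the sums -0.41). Of the 14, Cox6a2 and Cox4i2 passed only through E14, so that the filter fixed their direction. The median was -0.34 when the mean TPM had to reach 10, and -0.21 with the trend on length and GC content removed. The 11 ubiquitous subunits ranged widely around their own median of -0.40. Cox6c was the lowest of them, with a TPM of 1086 in E14 and 580.5 in Sox2 T258A cells (-0.90, -0.95 to -0.86). Cox4i1, the ubiquitous form of the largest nuclear subunit, was the most abundant at 1219 and 1310 TPM (0.10, 0.08 to 0.13), and its ratio turned to -0.04 when FPKM was used. Cox6c and Cox4i1 thus had similar levels in E14 and differed clearly in Sox2 T258A cells.

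Complex V, ATP synthase, contained the most abundant member of all and had a median of -0.12, with 12 of 16 members lower and sums of 10135 and 9190 TPM. This median was the closest to no change of the 5 complexes. With the trend on length and GC content removed it turned to 0.15, against 0.09 over all genes. Those of complexes I (-0.027), II (-0.11), III (-0.07) and IV (-0.21) were then below the median of all genes. In the catalytic F1 head all 5 subunits were lower by small amounts, but with the trend removed 1 of the 5 was lower, with a median of 0.14. The interval of the subunit Atp5e included no change (-0.0076, -0.08 to 0.06). Atp5b, the catalytic beta subunit, had a TPM of 2437 in E14 and 2429 in Sox2 T258A cells, from 144227 and 96316 reads, and its interval included no change (-0.0048, -0.02 to 0.01). The alpha subunit Atp5a1 had the lowest ratio of the head, with a TPM of 1192 and 1037 (-0.20, -0.22 to -0.18). The membrane part and the stalks were more scattered, with 6 of 10 subunits lower and a median of -0.13 (3 of 10 and 0.18 with the trend removed). Atp5j, a coupling factor of the peripheral stalk, had the highest ratio of the complex, with 290.7 and 363.9 TPM (0.32, 0.28 to 0.37). Atp5f1, subunit b of the same stalk, had 497.1 and 323.8 (-0.62, -0.65 to -0.59). The gene span of Atp5j overlaps Gabpa, which had 13513 reads in E14 and 8530 in Sox2 T258A cells, and reads of overlapping genes cannot be told apart unless strand was used in counting.

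The membrane ring of ATP synthase offered a comparison within 1 protein, because Atp5g1, Atp5g2 and Atp5g3 encode the same mature c subunit with different import sequences. Atp5g2 (chromosome 15, 102662868 to 102671047, GRCm38) had a TPM of 1116 in E14 and 598.2 in Sox2 T258A cells (log2 ratio -0.90, -0.94 to -0.86). Atp5g1 had 237.0 and 280.4 (0.24, 0.19 to 0.30), and Atp5g3 had 505.4 and 569.9 (0.17, 0.13 to 0.21). The lower level of Atp5g2 was thus set against slightly higher levels of the other two. The share of Atp5g2 in the TPM of the set was 60.05% in E14 and 41.3% in Sox2 T258A cells, that of Atp5g3 27.2% and 39.3%, and that of Atp5g1 12.8% and 19.4%. The sum of the set was 1858 TPM in E14 and 1448 in Sox2 T258A cells (log2 ratio -0.36). The signs of all 3 ratios were kept in all scalings tried and with the trend removed, when they were -0.56 for Atp5g2, 0.22 for Atp5g1 and 0.43 for Atp5g3. Atp5g2 has 2 near-identical copies in the annotation, neither of them with a row in the table.

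The tissue isoforms of complex IV all had a lower TPM than their ubiquitous counterparts, although Cox7a1 had 71.1 TPM in E14 beside 224.4 for Cox7a2. Among those past the filter, the muscle isoforms Cox6a2 and Cox7a1 had the lowest ratios. Cox6a2 (chromosome 7, 128205435 to 128206366), the heart and skeletal muscle isoform of subunit 6a, had 315 reads and a TPM of 15.1 in E14 and 0 reads in Sox2 T258A cells. Against a floor of 3 reads per library it was at least 70.4-fold lower, and no other member that passed the filter had 0 reads in either library. The ubiquitous Cox6a1 (chromosome 5, 115345652 to 115348958) had 880.0 TPM in E14 and 519.6 in Sox2 T258A cells (log2 ratio -0.76, -0.80 to -0.72). Cox6a2 therefore made up 1.69% of the transcripts for this subunit in E14, and the sum of the pair followed Cox6a1 (-0.78).

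Cox7a1 (chromosome 7, 30184171 to 30186030), the isoform of subunit 7a in heart, skeletal muscle and brown fat, had 820 reads in E14 and 172 in Sox2 T258A cells. Its TPM was 71.1 and 22.1, a 3.21-fold lower level in Sox2 T258A cells (log2 ratio -1.68, -1.93 to -1.44). The ratio was -1.39 with the trend removed and lay between -1.83 and -1.39 in all alternatives. The ubiquitous Cox7a2 had 224.4 TPM in E14 and 256.9 in Sox2 T258A cells (0.19, 0.14 to 0.25). The related Cox7a2l, which takes part in the assembly of supercomplexes, had 340.2 and 285.6 (-0.25). The share of Cox7a1 in the summed TPM of Cox7a1, Cox7a2 and Cox7a2l was 11.2% in E14 and 3.92% in Sox2 T258A cells. Cox6a2 and Cox7a1 thus had a lower TPM than their ubiquitous partners, which differed in opposite directions.

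Cox8b, the muscle isoform of subunit 8, had 0 reads in both libraries, for which 3 reads is the upper limit per library, and the ubiquitous Cox8a had 952.0 TPM in E14 and 554.4 in Sox2 T258A cells (log2 ratio -0.78, -0.82 to -0.74). Cox8a and Cox6a1 thus had similar ratios, although the muscle partner of Cox8a was without reads in E14 as well. Cox4i2, an isoform of lung and other oxygen-sensing tissues, was near the filter, with 247 and 102 reads and a TPM of 10.7 and 6.62 (-0.70, -1.05 to -0.36). Ndufa4l2, a paralog of the complex IV subunit Ndufa4 that is known to be induced in hypoxia, did not pass the filter, with 189 and 36 reads and a TPM of 6.20 and 1.77 (-1.81, -2.37 to -1.29). Its gene overlaps Shmt2, which had 21395 reads in E14 and 9457 in Sox2 T258A cells, so that its reads are uncertain. Ndufa4 had 749.1 and 548.7 TPM (-0.45).

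The testis isoforms had few reads apart from Cox6b2. Cox6b2 had 1021 reads and a TPM of 60.1 in E14 and 596 reads and 52.7 in Sox2 T258A cells (log2 ratio -0.19, -0.34 to -0.04), beside 637.5 and 531.7 TPM for the ubiquitous Cox6b1 (-0.26). Cox6b2 made up 8.62% of the pair in E14 and 9.02% in Sox2 T258A cells, and the signs of both genes turned with the trend removed, to 0.10 and 0.01. Cox8c had 49 and 16 reads (TPM 3.21 and 1.57, -1.03, -1.95 to -0.19). Cox7b2 had 20 and 17 reads (TPM 1.14 and 1.48), and its interval included no change (0.39, -0.64 to 1.39), while the ubiquitous Cox7b had 442.8 and 378.5 TPM (-0.23). Of the 8 tissue isoforms, 4 passed the filter, and all 4 were lower. Cox6a2 and Cox4i2 passed only through E14, where they were higher, so that the filter fixed their direction.

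**Figure D3:**
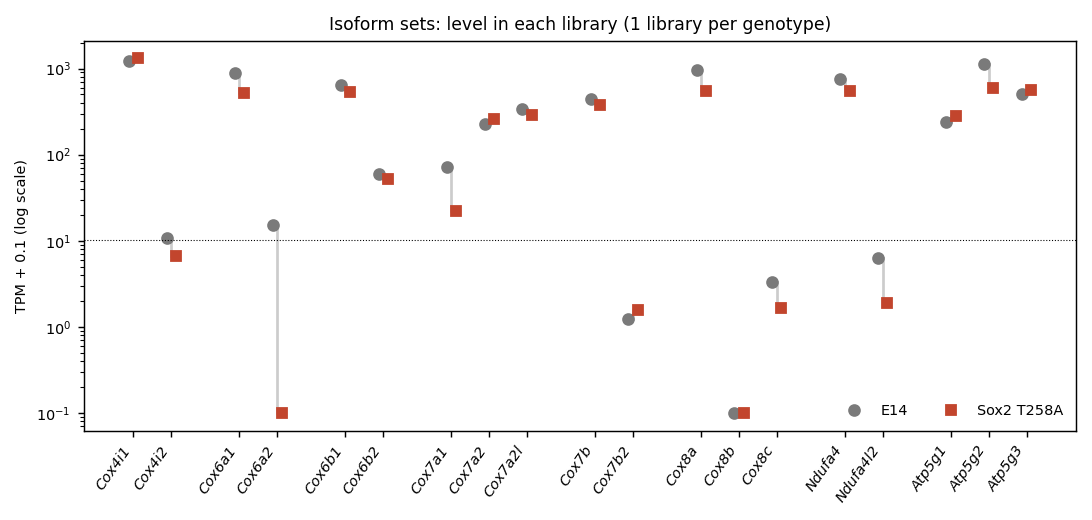
The y axis gives TPM + 0.1 on a log scale in E14 (grey circles) and Sox2 T258A cells (red squares), 1 library each, for the isoform sets along the x axis, and the dotted line marks a TPM of 10. The ubiquitous complex IV isoforms lie between 224.4 and 1310 TPM in both libraries, whereas Cox6a2 stands at 15.1 TPM in E14 and at 0 in Sox2 T258A cells.

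Markers of the tissues that use these isoforms were detected in both libraries, and most of the muscle and germ cell markers also had a lower TPM in Sox2 T258A cells. Of 14 heart and skeletal muscle markers, 11 had a lower and 2 a higher TPM in Sox2 T258A cells, and their summed TPM was 337.9 in E14 and 127.8 in Sox2 T258A cells. Mylpf, a myosin light chain gene, gave most of this with 305.2 and 100.9 TPM, and without it the sums of the other 13 were 32.7 and 26.9. The markers Myh1 (0 reads in both libraries), Mb, Myog and Tnnt2 (44, 21 and 19 reads in E14) had 0 reads in Sox2 T258A cells. The higher ones were the actin genes Actc1, with 7 reads in E14 and 60 in Sox2 T258A cells, and Acta1, with 107 and 193. Of 13 male germ cell markers, 10 were lower and none higher, with sums of 230.7 and 93.3 TPM, and Prm1, Prm2 and Pgk2 had 0 reads in both. Of 6 brown adipose markers, 3 were lower, with sums of 31.1 and 2.42 TPM (2.77 and 1.97 without Cidea), and Adipoq, Fabp4 and Ppargc1a had 0 reads in both. Of 9 fibroblast markers, 3 were lower and 3 higher, with sums of 56.3 and 21.1 TPM (16.2 and 9.64 without Thy1) and 0 reads for Dcn, Lum and Postn in both. These counts were made without the filter, which 2 muscle, 5 germ cell, 1 brown adipose and 1 fibroblast markers passed, all lower. Of these, Tnni3, Dazl, Cyct and Cidea passed only through E14, so that the filter fixed their direction. The interval included no change for Myod1, Pygm, Tnp1 (2 and 0 reads) and Ucp1, counted as lower, and for Col1a1, counted as higher. With the filter set to a TPM of 1, 47.6% of all genes were lower. Some of the counted markers lay under that filter in both libraries, so that the sets are not alike. At that filter, 1366 genes were more than 2-fold lower and 886 more than 2-fold higher. The part of the markers in the levels of the isoforms was not tested.

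The members on chromosome 15 lay toward the lower end of the ratios. All 4, Cox6c, Ndufb9, Ndufa6 and Atp5g2, were lower, with log2 ratios from -0.90 to -0.54 and a median of -0.73, and the 396 genes of this chromosome past the filter had a median of -0.14, the lowest of the chromosomes. These 4 were chosen after their values were seen. Members on other chromosomes, such as Ndufaf3 (-0.81) and Cox8a (-0.78), had ratios in the same range. With the trend on length and GC content removed, the ratios of the 4 ran from -0.64 (Cox6c) to -0.21 (Ndufb9). On chromosome 8, where the median of all genes was the highest at 0.28, the 3 members Cox4i1, Ndufb7 and Ndufa13 had a median of 0.03. All 10 members on chromosome 7 were lower, with a median of -0.32 against -0.04 for all of its genes. Without the members on chromosome 15 the median of the remaining 87 was -0.23, with 72 lower, and without chromosomes 15 and 8 it was -0.25, with 71 of 84 lower. The number of copies of each chromosome was not measured.

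**Figure D4:**
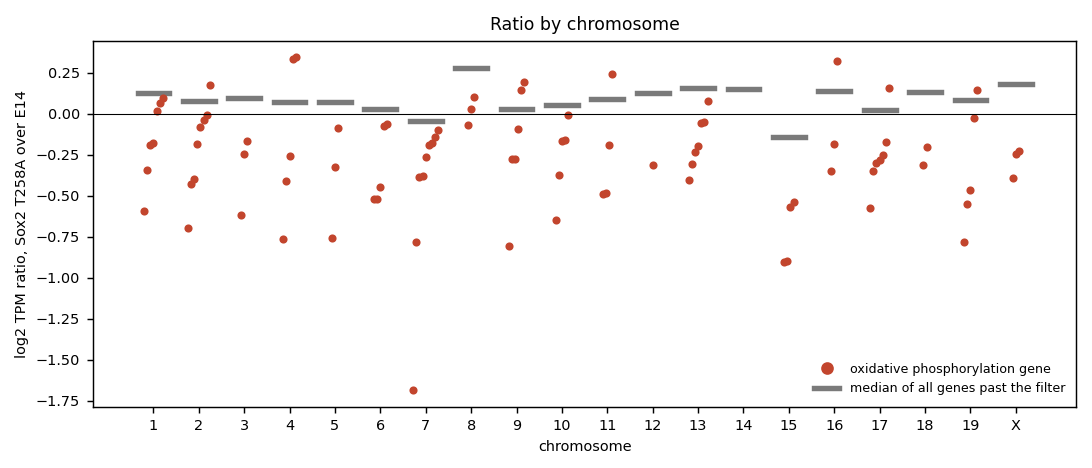
The y axis gives the log2 TPM ratio (Sox2 T258A over E14) of each member (red points) on the chromosomes along the x axis, with grey bars for the median of all genes past the filter on each. The 4 members on chromosome 15 lie between -0.90 and -0.54, and the bar of chromosome 15, at -0.14, is the lowest.

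Near-identical copies limit some of these values. In the annotation, 13 members matched another gene at 95% identity or more over at least 50% of the transcript, with 26 matches, of which 22 were processed pseudogenes. Only 2 of these copies had a row in the table. Ndufs5, a complex I subunit, had 111 reads in E14 and 51 in Sox2 T258A cells, while its pseudogene BC002163 had 2383 and 1175. Reads of the gene and of its copy cannot be told apart, and the sum of both gave a log2 ratio of -0.47 (-0.57 to -0.37). Gm10012, a copy of Cox7c, had 3 and 0 reads and left Cox7c at -0.40. Atp5l, which had 9 copies, was one of the 15 members with a higher TPM, at 528.9 and 585.5 (0.15). The gene spans of 18 members overlap another gene of the table, and in 3 of them (Atp5j, Cox4i2 and Ndufa4l2) the other gene had more reads in E14.

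Genes around the chain that carry other names are described by list, with the single genes past 2-fold. All 3 genes of the cytochrome c step were lower, with a median log2 ratio of -0.14. Cycs, the somatic cytochrome c, had 86.3 TPM in E14 and 84.8 in Sox2 T258A cells, and its interval included no change (-0.026, -0.07 to 0.02). Cyct, the testis form, had 16.2 and 5.24 (-1.63, -2.01 to -1.26). It passed the filter only through E14, so that the filter fixed its direction. The 3 subunits of ATP synthase and complex IV under other names were all lower, with a median of -0.21 and a range from -0.24 for 2010107E04Rik to -0.21 for Usmg5. Assembly factors under other names were lower in 24 of 36, with a median of -0.11 and a summed TPM of 2020 in E14 and 1626 in Sox2 T258A cells (log2 ratio of the sums -0.31). Their extremes both belong to complex IV and were the ones past 2-fold. Cox20, a chaperone of the Cox2 subunit, had 15.7 TPM in E14 and 42.7 in Sox2 T258A cells (1.45, 1.21 to 1.69). Cox14, which acts in the assembly of Cox1, had 146.8 and 53.7 (-1.45, -1.56 to -1.34).

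Regulators of mitochondrial biogenesis were balanced, with 8 of 16 lower and a median of 0.05. Their median transcript had 2762 bases, against 861 in the members, and values with the trend on length removed are not given for these lists. Pprc1, a coactivator of the PGC-1 family, was the highest with 73.1 TPM in E14 and 120.2 in Sox2 T258A cells (log2 ratio 0.72), and Tfb1m, a methyltransferase of mitochondrial ribosomal RNA, was the lowest with 29.6 and 22.2 (-0.42). Ppargc1a, which encodes PGC-1 alpha, had 0 reads in both libraries. In the tricarboxylic acid cycle and pyruvate dehydrogenase list 15 of 20 genes were lower, with a median of -0.13. The median transcript of that list had 2454.5 bases. Mpc1, a subunit of the mitochondrial pyruvate carrier, had 67.3 and 29.2 TPM (-1.20, -1.34 to -1.07), and Suclg2 was the highest of the list at 0.29. Among uncoupling proteins and carriers, Ucp2 had 177.8 and 68.2 TPM (-1.38, -1.45 to -1.32). Slc25a4, an ADP/ATP carrier, was the highest of that list at 0.14.

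Other large complexes were set beside the members as a comparison. Mitochondrial ribosomal proteins, which are also encoded in the nucleus, were lower in 55 of 78 genes, with a median log2 ratio of -0.12 and a median transcript of 1225 bases. Cytosolic ribosomal proteins, whose transcripts are as short as those of the members (median 802 bases), were lower in 64 of 83, with a median of -0.15. Proteasome subunits had a median of 0.08, equal to that of all genes, with 14 of 37 lower and a median transcript of 1512 bases. No test of these differences is possible with 1 library per genotype.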

How the data were processed

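RNA-seq of E14 and Sox2 T258A ESCs, with 1 library per genotype, was taken from the deposited gene table of the mm10 build (GRCm38). The deposited read counts are whole and not normalized, while FPKM, as deposited by the authors, is relative to transcript length and fragment number. TPM, also deposited by the authors, is relative to transcript length and a fixed library sum. TPM was a constant multiple of FPKM at all members (within 1%). Per the submitters' processing notes, bcl2fastq 2.20.0, Trimmomatic, HISAT2 2.1.0 and StringTie 2.1.3b were used with the builds hg19 and mm10, with no role or order given. The handling of strand and of reads that map to several genes is not given in the sources used here.

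The filter (genes under a TPM of 10 in both libraries were left out) and the threshold (more than 2-fold) followed the study's methods. Genes listed at a TPM of 0 in a single library were taken as past the threshold. Intervals are exact Clopper-Pearson intervals (95%) of the read counts on the TPM scale, and that of a median runs between the medians of the limits. Where a library had 3 reads or fewer, a floor of 3 reads gave the fold as a bound. Library totals were 60263536 and 44609228 reads. The rule found 96 members, and named with values were the isoform sets, members past 2-fold, the extremes and the most abundant member of each complex, small classes, and the extremes and genes past 2-fold of other lists. The members and lists were chosen with earlier results of these data known, and the classes were written from general knowledge. Kinase genes that share the prefix of the cytosolic ribosomal proteins were left out of that group after the table was seen. Subunits encoded by mitochondrial DNA were not analysed here. Positions and promoters came from RefSeq, and transcript length, GC content and copies (blastn 2.17.0) from the GENCODE annotation of GRCm38. Trends on length and GC content were medians in 20 bins each, and the median of all genes was added back after their removal. Alternative scalings used TMM (edgeR 4.0.16) and median-of-ratios size factors (DESeq2 1.42.0), without their tests, because there were no replicates. Calculations were made with Python 3.11.15 and R 4.3.3, and the procedure was tested on simulated data. Other filters, thresholds, pseudocounts and scalings were tried as alternatives.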

Additional observations from a re-analysis of the deposited data

How the results depend on the processing

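The number of members more than 2-fold lower was 2, and it became 4 with the filter set to a TPM of 1 (4.21%, against 9.95% of all genes), 1 with the filter at 20 (1.16%, against 3.05%), 1 when the mean TPM had to reach 10 (1.12%, against 3.09%), 13 at a threshold of 1.5-fold (14.3%, against 10.5%) and 4 with the FPKM ratio (4.40%, against 5.45%). The median log2 ratio of the members was -0.25, and it was -0.39 with the FPKM ratio, -0.33 when centred on the median of all genes and -0.026 with the trend on transcript length and GC content removed. The FPKM ratio moved the median of all genes from 0.08 to -0.06, and relative to it the members lay at -0.33 in both scalings. This was fixed in advance, because TPM is a constant multiple of FPKM in each library, so that all ratios shift alike. The count of members with a lower TPM stayed within 1.5 times 76 in all alternatives, from 51 with the trend removed to 82 with the FPKM ratio at the same filter, and no member was more than 2-fold higher in any alternative. The median of complex V changed sign (0.15) with the trend removed, as did Cox6b1, Cox6b2 and Cox7a2l, and Cox4i1 changed sign with the FPKM ratio (-0.04). Sums with near-identical copies, the members without such copies and the members outside chromosome 15 were alternatives chosen after seeing the data. Sums with rows named as pseudogenes of a member gave no value, because no such row was in the table. No paired analysis was possible because each genotype had 1 library, and for the same reason no replicate could be left out. The widest counting interval of a ubiquitous subunit or assembly factor past the filter spanned 0.48 on the log2 scale, the number of reads limited the low isoforms such as Cox7b2 (-0.64 to 1.39), and the spread between cultures was not measured.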

Other observations

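Values of 2 testis or germ cell forms of metabolic genes, chosen after their values were seen, are given here. Pdha2, the testis form of the pyruvate dehydrogenase alpha subunit, had 166 reads in E14 and 13 in Sox2 T258A cells (log2 TPM ratio -3.09, counting interval -4.03 to -2.28). Slc25a31, the germ cell ADP/ATP carrier, had 321 and 56 reads (-1.94, -2.38 to -1.53). Both had a TPM under 10 in each library and entered no count of the comparison. Their ubiquitous counterparts of the carrier family, Slc25a4 and Slc25a5, had 494.5 and 991.3 TPM in E14 and 546.0 and 1026 in Sox2 T258A cells (0.14 and 0.05).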
